A study of Mus musculus with 6 samples.

Results

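Most of the proteins described here belong to the core machinery of pre-mRNA splicing. They include the protein parts of the small nuclear ribonucleoproteins (snRNPs), the SF3a and SF3b complexes and the factors that recognise the 3′ splice site. The PRP proteins and the SMN complex that assembles snRNPs are included too. Another 6 tested members are LSm proteins outside the U6 ring described below, some of them in mRNA decay or histone mRNA processing. All counts of members include these 6. Members were taken by gene symbol alone, with no measured value: symbols that begin with Sf3a, Sf3b, Prpf, Snrn, Snrp, U2af or Lsm and a digit, together with Sf1, Gemin2, Gemin4, Gemin5, Ddx20 and Smn1. The arrays held 57 such genes with a probe set of their own among 18193 genes, and 56 of them were among the 13447 genes bright enough to be tested. The gene that was not tested was Snrpn, whose only probe set read 5.0, 4.5 and 15.9 in wild type and 28.3, 25.6 and 3.8 in the mutant. A further 5 genes, Gemin4, Lsm5, Snrpa, Snrpd1 and Snrpd2, lay only on probe sets that also name other genes and were not read.

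RNA came from whole testes of mice on a mixed C57BL/6 and 129 background at postnatal day 21 (P21), with 3 arrays of wild-type (Wt) mice and 3 arrays of Dazap1 mutant mice. Per the study's methods, the mutants were homozygous for the floxed with neo allele, called Fn, and came from crosses of heterozygotes. The Fn allele is not a null: it makes an aberrant DAZAP1 protein that carries an insertion between its RNA-binding domains. Most homozygotes die around birth, so the Fn arrays came from the few survivors, which are small. The labels call the arrays of a group biological replicates, and no drug or other treatment was given.

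The spliceosome is built anew on every intron. The U1 snRNP binds the 5′ splice site, SF1 and the U2 auxiliary factor mark the branch point and the 3′ splice site until the U2 snRNP with SF3a and SF3b takes over, and the U4/U6.U5 tri-snRNP then joins and is rearranged into the catalytic form. A separate minor spliceosome, with U11 and U12 in place of U1 and U2, removes a small class of introns. The SMN complex loads a ring of Sm proteins onto most of these small nuclear RNAs, whereas U6 carries a ring of the related LSm proteins. Male germ cells splice many transcripts in forms of their own, and DAZAP1 is itself an RNA-binding protein that acts in splicing. These arrays were run to find genes whose expression differs between Wt and Fn testes.

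All values are MAS5 signals, a linear intensity for each probe set, and a change is the difference in mean log2 signal, Fn minus Wt, from limma with Benjamini-Hochberg adjustment over all 27022 probe sets tested. A gene is called higher or lower where its adjusted p is under 0.05, and its brightest probe set stands for it. Dazap1 itself read 4323, 4462 and 5046 in Wt and 2538, 2735 and 2819.8 in Fn. All Fn values lay below all Wt values, and the log2 change was -0.77 (SE 0.088, adjusted p = 6.7e-05).

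The testes differed in far more than splicing genes. Of 11 tested markers of pachytene and diplotene spermatocytes 10 were lower, and their summed signal was 77453 to 83062 in Wt and 17931 to 25674 in Fn. All 9 tested round spermatid markers were lower, and their summed signal was 28489 to 33010 in Wt and 2635 to 3471 in Fn. Markers of Sertoli cells were higher for 11 of 12 genes (37290 to 43709 in Wt, 63559 to 67613 in Fn), and those of peritubular and stromal cells for 9 of 10 (22155 to 28809 in Wt, 46257 to 49090 in Fn). All 3 tested adipose markers were higher as well, with the largest median log2 change of the lists of higher markers (1.88) and a summed signal of 1171 to 4943 in Wt and 5568 to 11160 in Fn. Markers of earlier germ cells were mixed. Those of early meiotic prophase had 3 higher and 2 lower of 9 tested. Undifferentiated spermatogonia had 5 higher and 1 lower of 7, and differentiating spermatogonia 4 and 1 of 5. In whole testes, fewer cells of a type and less RNA per cell cannot be told apart. The study described testes of both genotypes at this age as holding mainly pachytene spermatocytes, with few or no haploid spermatids. The study raised the concern that Fn mice, being growth-retarded, might have pachytene spermatocytes at an earlier stage than same-age Wt mice. For its exon arrays it therefore used adult Fn testes. Such a difference in stage was not tested here, and neither was the part of this marker shift in the changes given below.

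Against that background the members moved little. Of the 56 members, 18 (32.1%) were higher in Fn and 11 (19.6%) lower, while 44.9% of all genes tested were higher and 24.7% lower. No member was more than 2-fold higher and 1, Snrnp35 of the minor spliceosome, was more than 2-fold lower, where 11.6% of all genes were called higher and 13.8% lower by more than 2-fold. The median change of the members was 0.03 on the log2 scale, beside 0.32 over all genes, and 42 of the 56 members lay below the median of all genes. The members were also close together: the middle of their distribution, from the 25th to the 75th percentile, ran from -0.19 to 0.31, beside -0.36 to 0.77 for all genes. Of the members 82.1% changed by less than 0.5 on the log2 scale, beside 37.6% of all genes.

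**Figure D1:**
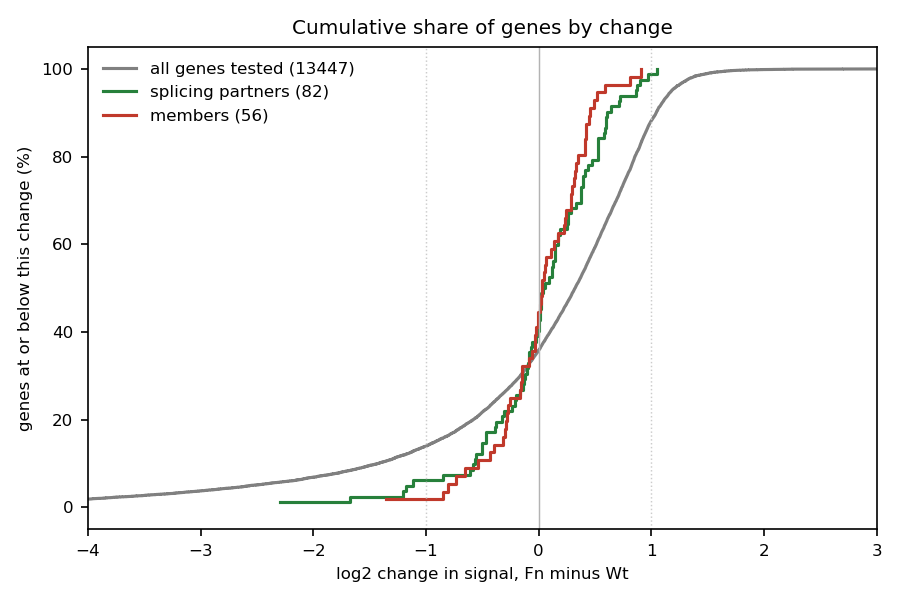
Cumulative share of genes (vertical axis, percent) at or below each log2 change in signal, Fn minus Wt (horizontal axis), for all 13447 genes tested (grey), 82 splicing partners that the symbol rule does not take (green) and the 56 members (red). The member curve is the steepest and crosses its midpoint at 0.03, whereas the curve for all genes crosses at 0.32; dotted lines mark a 2-fold change.

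The member probe sets were also bright, with a median signal of 2323 beside 602 over all genes, and 85.0% of genes were dimmer than the median member. The part of brightness in the narrow spread was not tested. Both group means of all 56 members lay above the filter on dim probe sets (48.0), so none passed it through 1 group alone. Of the members, 18 had all Fn values above all Wt values, 14 had all below and 24 had groups that overlapped; the groups were apart for 57.1% of members and 75.6% of all genes. Among the called members only Smn1 and Snrpb2 had groups that overlapped. For the 27 members that were not called, the 95% interval of the change stayed within 1 on the log2 scale in every case and within 0.5 for 22, and the widest reached 0.71, for Lsm12.

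The direction of the balance depended on how the arrays were scaled. On the deposited scale 62.1% of the called members were higher, close to the 64.5% of all called genes. Once each array was centred on its median, 29.2% of the called members were higher (7 higher and 17 lower) beside 54.7% of all called genes, and the median of all genes went from 0.32 to 0.17. The members called were then 12.5% higher and 30.4% lower, and those of all genes 33.1% and 27.4%. Centring on the 75th percentile gave 10 higher and 16 lower with a median of 0.19 over all genes, and quantile normalization gave 15 and 10 with 0.25. Across these scalings and all other alternatives run, no called member was called in the opposite direction, and the median of the members stayed below that of all genes.

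**Figure D2:**
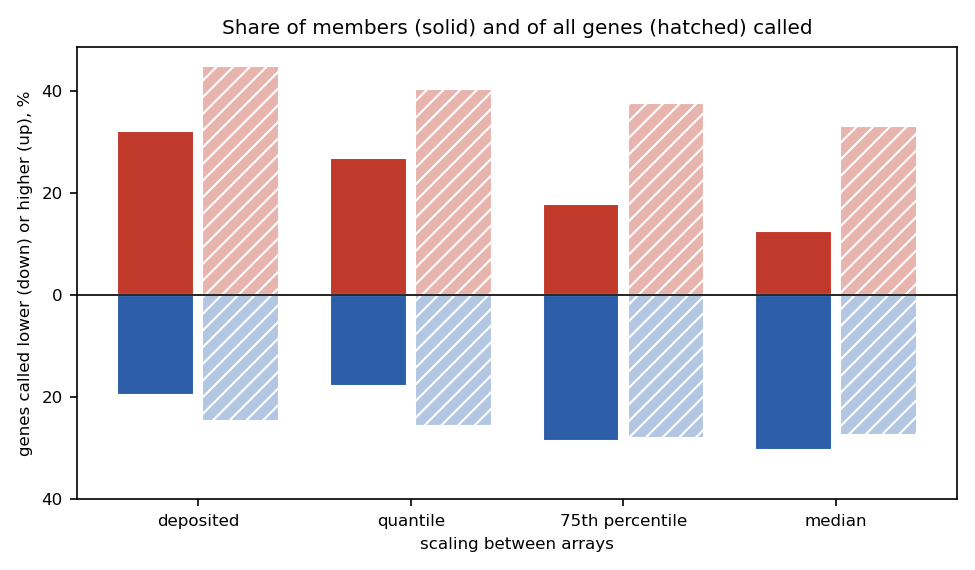
Percent of genes called higher (red, upward) and lower (blue, downward) in Fn at an adjusted p under 0.05, for the 56 members (solid) and all genes tested (hatched), under 4 scalings of the arrays. Members called higher went from 32.1% on the deposited scale to 12.5% with median centring, and members called lower from 19.6% to 30.4%.

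**Figure D3:**
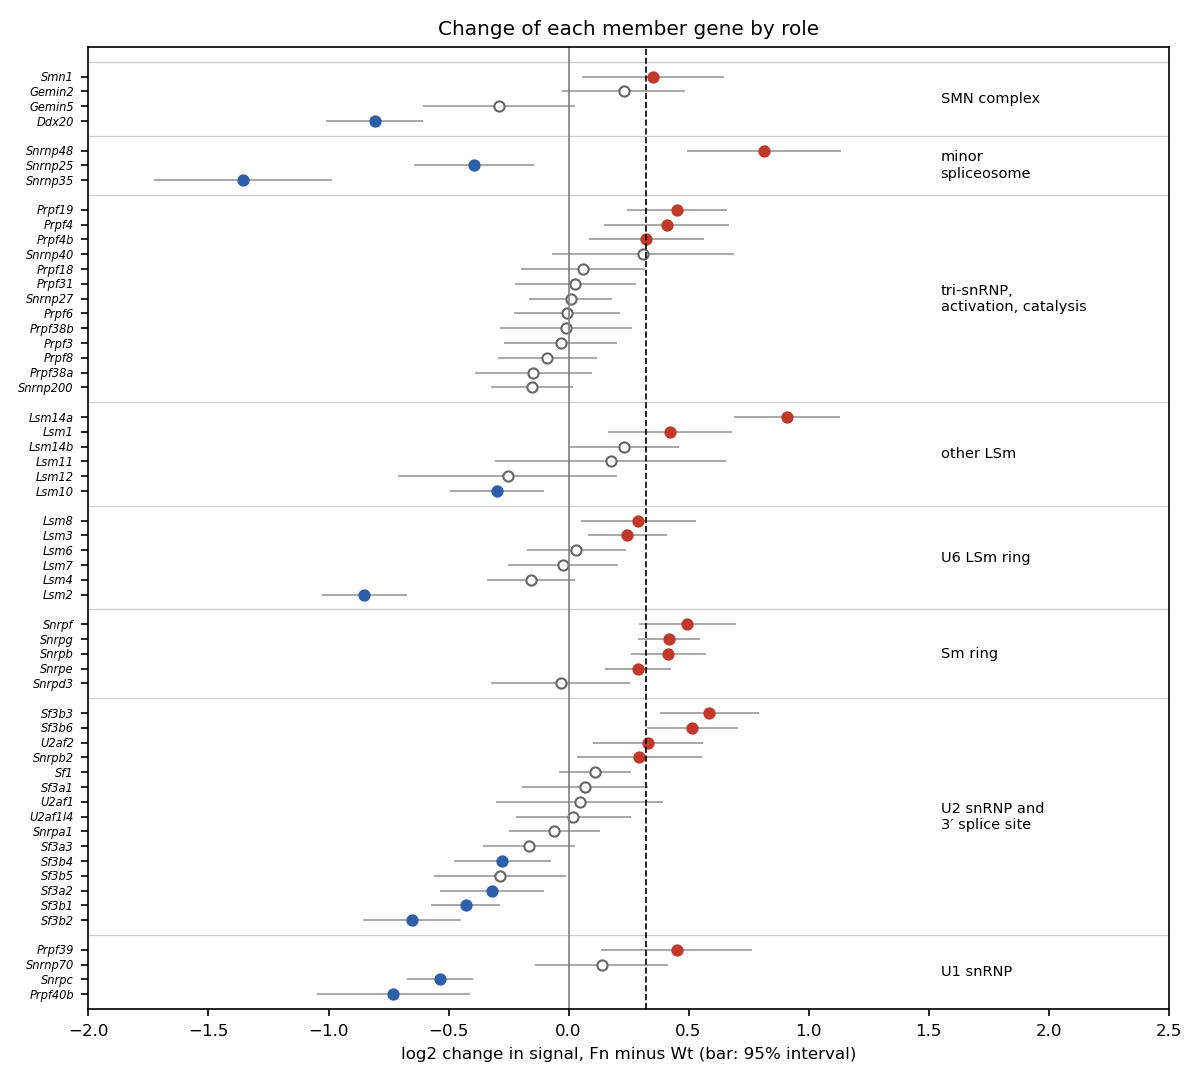
Horizontal axis: difference in mean log2 signal (Fn minus Wt) for the 56 members, grouped into 8 roles; bars are 95% intervals, n = 3 arrays a group. Red points were called higher, blue lower and open points neither, a dashed line stands at the all-gene median of 0.32, and every role but the Sm ring and the tri-snRNP group holds members called in both directions.

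The minor spliceosome proteins showed the widest split, with their highest and lowest changes 2.17 apart on the log2 scale. Snrnp35, the U11/U12 protein related to U1-70K, read 1131, 1377 and 1415 in Wt and 526.6, 618 and 404.7 in Fn. The groups were far apart, and the gene was 2.56-fold lower (log2 change -1.35, SE 0.165, adjusted p = 1.0e-04). Snrnp25, another U11/U12 protein, read 1865, 2408 and 1963 in Wt and 1650.1, 1558 and 1515 in Fn, all Fn values below all Wt values but by a smaller step (-0.39, adjusted p = 0.012). Snrnp48, which lies near the 5′ splice site in the U11 particle, went the other way: 375.3, 393.6 and 306 in Wt against 600.4, 694.6 and 590.2 in Fn, a change of 0.82 (adjusted p = 8.4e-04). The counts of 1 higher and 2 lower held under all 4 scalings. The Snrnp48 value rests on 1 of its probe sets: the other 3 gave 0.15, -0.25 and 0.45, none of them called. Without Fn replicate 3 the first of these becomes the brightest, and the gene then reads 0.27 (adjusted p = 0.18), although the probe set used otherwise still gives 0.86 on the same arrays. With the mean of all its probe sets Snrnp48 reads 0.29 (adjusted p = 0.14).

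In the SMN complex, Ddx20, the helicase also called Gemin3 and named in the study as a partner of DAZAP1, carried the firmest change. It read 2860, 2889.6 and 3233 in Wt and 1643, 1812.5 and 1675 in Fn. All Fn values were below all Wt values and the gene was 1.75-fold lower (-0.81, SE 0.090, adjusted p = 6.1e-05). Smn1, the central protein of the complex, read 1071, 856.7 and 974.8 in Wt and 1247, 1065 and 1399 in Fn. Its groups overlapped and its call was weak (0.35, adjusted p = 0.041), holding in 8 of 17 alternatives. Gemin2, the direct partner of SMN, had all Fn values above all Wt values but was not called (0.23, adjusted p = 0.11), and Gemin5, which recognises the snRNAs, overlapped (-0.29, adjusted p = 0.099). With the arrays centred on medians or 75th percentiles the complex held 0 higher and 2 lower members, Gemin5 being the second.

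The Sm proteins, which form the ring that the SMN complex loads, were the one role in which most members were higher. Of 5 tested, 4 were higher and 0 lower, under quantile normalization and 75th percentile centring as well, and 2 were higher with median centring. Snrpg read 7787, 7935 and 7735 in Wt and 10226, 10508 and 10627 in Fn, with groups far apart for a change of 0.42 (SE 0.058, adjusted p = 2.1e-04). Snrpb read 6143, 6354 and 5721 in Wt and 8195, 7744 and 8344 in Fn, again apart (0.42, adjusted p = 6.6e-04). Snrpf read 2709.6, 2818 and 2455 in Wt and 3822, 3466 and 3964 in Fn, the largest step of the ring (0.50, adjusted p = 0.0010). Snrpe gave the smallest of the called steps, 0.29 (adjusted p = 0.0026), with all Fn values above all Wt values. Snrpd3 overlapped entirely, with 3555, 4264 and 3534 in Wt and 4169, 3971 and 3028 in Fn (-0.03, adjusted p = 0.84). The median change of the ring, 0.42, was 0.09 above that of all genes, so these rises were about the size of the general shift.

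**Figure D4:**
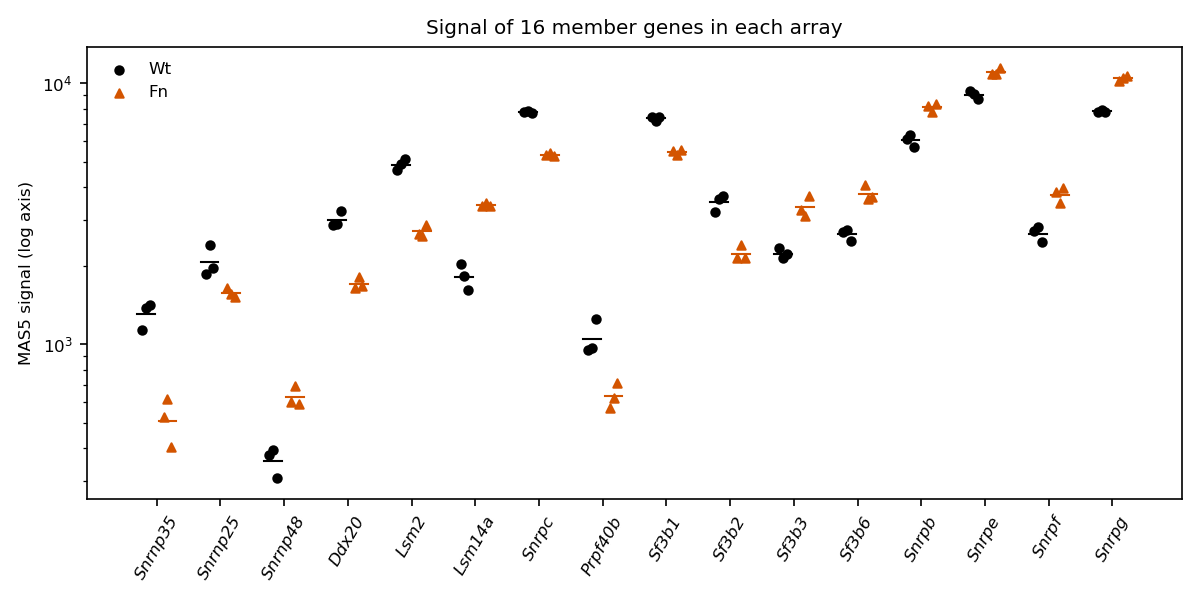
MAS5 signal (vertical log axis) of 16 member genes in each array, with Wt as black circles, Fn as orange triangles and a bar at each group's geometric mean, n = 3 arrays a group. The 16 genes were chosen after their values were seen, and in all of them the Wt and Fn points do not overlap. Groups were apart for 57.1% of all members and 75.6% of all genes. Among the 16, Snrnp35 shows the largest step on the log axis, with arithmetic means of 1308 in Wt and 516.4 in Fn.

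Of the 6 LSm proteins tested of the U6 ring, 2 were higher and 1 lower on the deposited scale. Lsm2, a subunit of both the nuclear U6 ring and the cytoplasmic ring of mRNA decay, read 4648, 4893 and 5112 in Wt and 2652, 2610.3 and 2865 in Fn. This was the largest change of either ring, 1.80-fold lower with the groups far apart (-0.85, SE 0.079, adjusted p = 1.9e-05). Lsm3 was higher by 0.25 (adjusted p = 0.015) and Lsm8, the subunit particular to the U6 ring, by 0.29 (adjusted p = 0.038), and with median or 75th percentile centring neither was called. Lsm4 (-0.16, adjusted p = 0.12), Lsm6 (0.03, adjusted p = 0.77) and Lsm7 (-0.02, adjusted p = 0.85) were not called on the deposited scale. Lsm4 was called lower with either centring (-0.31 and -0.29), where the ring held 0 higher and 2 lower. The 6 changes spanned 1.14 on the log2 scale although the proteins form 1 ring.

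Outside that ring, Lsm14a, a P-body protein that binds repressed mRNA, showed the largest rise of any member. It read 2036, 1834 and 1610 in Wt and 3376, 3478 and 3394 in Fn. The Fn values lay tightly together above all Wt values (0.91, adjusted p = 5.2e-05), and 2 further probe sets of the gene gave 0.84 and 0.79. Its paralog Lsm14b was not called (0.23, adjusted p = 0.071). Lsm1, which takes the place of LSM8 in the decay ring, was higher (0.42, adjusted p = 0.0095) except with median centring. Lsm10, an LSm protein of the U7 snRNP that processes histone mRNA, read 1603, 1622 and 1655 in Wt and 1300.2, 1315 and 1357 in Fn, a small step (-0.30, adjusted p = 0.014) with no overlap. Its U7 partner Lsm11 was dim and not called (0.18, adjusted p = 0.49), with 159.4, 159.5 and 144 in Wt and 218.5, 131.7 and 183.4 in Fn, while its dimmer second probe set was called higher (0.81, adjusted p = 0.042). Lsm12 was not called (-0.25, adjusted p = 0.30), and its value rested on Fn replicate 2, without which it was 0.017.

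Lsm2 and Snrpg, one lower and one higher, were the only members of the 47 with a RefSeq promoter window (assembly GRCm38.p6, 250 bases before to 50 after a transcript start) that held the full cyclic AMP response element TGACGTCA, the palindrome that CREB and CREM proteins bind. The 2 sites are shown because the same letters stood before genes that changed in opposite directions. Capitals mark the element, and both stretches are 30 bases on the plus strand, at chr17:34982085-34982114 for Lsm2, where it begins 34 bases before the start of one RefSeq transcript, and at chr6:86371480-86371509 for Snrpg, where it begins 49 bases before.
Lsm2: ggtgggtaccgTGACGTCAaaagggagcgc
Snrpg: tcgcgcggcggTGACGTCAgacaccagcgc
The element was in 4.26% of the members and 2.03% of all 27025 genes with a window, and 2 members are too few to read anything from this.

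The U1 snRNP proteins split as well. Snrpc (U1-C), which steadies the pairing of U1 with the 5′ splice site, varied little within either group, with 7733, 7800.3 and 7666 in Wt and 5308, 5424 and 5278 in Fn. The groups were far apart for a 1.45-fold fall (-0.54, SE 0.062, adjusted p = 7.3e-05). Prpf40b, a counterpart of a yeast U1 protein, read 955, 965.6 and 1247 in Wt and 569.9, 621.2 and 712.2 in Fn and was lower by a larger step (-0.73, adjusted p = 0.0015). Prpf39, another counterpart of a yeast U1 protein, was higher, with 580.5, 609 and 499.7 in Wt and 857.7, 655.4 and 802.7 in Fn (0.45, adjusted p = 0.018), and lost the call under quantile normalization (0.34, adjusted p = 0.058) and under both centrings. Snrnp70 (U1-70K) overlapped (0.14, adjusted p = 0.35), with 1732, 1907 and 1767 in Wt and 1902, 2378 and 1721 in Fn.

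Within the U2 snRNP the SF3b complex, the clamp that holds the branch point helix, was divided between both directions, with 3 of its 6 tested proteins lower and 2 higher. Sf3b1, the large subunit of the clamp, read 7402, 7177 and 7449.5 in Wt and 5496, 5311 and 5559 in Fn, all Fn values below (-0.43, adjusted p = 3.1e-04). Sf3b2 read 3206, 3592 and 3708 in Wt and 2145, 2399 and 2136.5 in Fn, lower by a larger step (-0.65, adjusted p = 2.3e-04), and 4 of its 7 probe sets were lower with none higher. The Sf3b2 value was smaller, at -0.28 (adjusted p = 0.046), averaged over its probe sets, and -0.40 without Fn replicate 2, where another of its probe sets becomes the brightest. Sf3b3 read 2329.9, 2139 and 2216 in Wt and 3256, 3111 and 3695 in Fn, all Fn values above (0.59, adjusted p = 4.2e-04). Sf3b6, the small subunit that sits at the branch point, read 2695, 2744 and 2498 in Wt and 4062, 3609 and 3683.5 in Fn, also above without overlap (0.52, adjusted p = 5.4e-04). These 4 calls held under all 4 scalings, and that of Sf3b1 was lost with the mean of its probe sets (-0.21, adjusted p = 0.056). Sf3b4 was lower (-0.28, adjusted p = 0.024) and lost the call under quantile normalization (-0.18, adjusted p = 0.10) and with the mean of its probe sets (-0.16, adjusted p = 0.18). Sf3b5 lay below Wt in all Fn arrays without being called (-0.28, adjusted p = 0.067). It was called lower in 6 of 17 alternatives, among them replicate number as a block (adjusted p = 0.027) and both centrings (-0.44 and -0.41), and its second probe set was called lower (-0.38, adjusted p = 0.013), so the count of lower SF3b proteins changes with the scaling and the probe set.

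The promoters of 3 SF3b genes are shown because they held the same ETS core, CCGGAAG or its reverse complement CTTCCGG, while 1 gene was lower and 2 were higher. They are the 250 bases before the RefSeq start in GRCm38.p6, read along the gene's strand, with the core in capitals: Sf3b2 at chr19:5295458-5295707, minus strand, with the core 11 bases before the start; Sf3b3 at chr8:110846804-110847053, minus strand, 229 bases before; and Sf3b6 at chr12:4817358-4817607, plus strand, with 2 cores, 85 and 70 bases before.
Sf3b2: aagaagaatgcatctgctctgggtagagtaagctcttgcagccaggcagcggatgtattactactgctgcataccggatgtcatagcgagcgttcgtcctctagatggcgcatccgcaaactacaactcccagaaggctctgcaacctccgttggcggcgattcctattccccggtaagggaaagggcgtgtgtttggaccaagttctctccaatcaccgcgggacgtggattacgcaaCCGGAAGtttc
Sf3b3: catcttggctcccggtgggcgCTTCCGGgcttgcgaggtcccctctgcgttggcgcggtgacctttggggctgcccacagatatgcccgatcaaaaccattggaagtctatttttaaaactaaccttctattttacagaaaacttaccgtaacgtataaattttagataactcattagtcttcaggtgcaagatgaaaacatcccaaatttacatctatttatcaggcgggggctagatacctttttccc
Sf3b6: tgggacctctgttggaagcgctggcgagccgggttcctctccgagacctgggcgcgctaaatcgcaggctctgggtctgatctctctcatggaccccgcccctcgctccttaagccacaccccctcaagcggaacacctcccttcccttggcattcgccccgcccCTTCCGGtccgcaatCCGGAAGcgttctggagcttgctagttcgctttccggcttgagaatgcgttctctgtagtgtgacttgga
Over the 47 members with a window, the ETS core lay in 17 (36.2%), of which 8 were higher, 3 lower and 6 not called, beside 15 higher, 10 lower and 22 not called among all 47. The core lay in 9.93% of all genes with a window, a set that includes noncoding and predicted genes. The GC box GGGCGG was in 68.1% of members and 38.2% of all genes, the NRF1 core GCATGCGC in 12.8% and 3.05%, the CRE core TGACG in 36.2% and 23.0%, and CCAAT in 40.4% and 41.1%. The other 7 of the 12 motifs or forms searched, on both strands, were ATGGCGGC (YY1), TTTCGCGC and TTTGGCGC (E2F), ACTACAA (ZNF143), AACNGTT (MYB), GTTGCCATG (RFX) and the full TGACGTCA given above, which contains TGACG. Each lay in at most 2 members. A match is a description of the letters in these windows and was not tied to any change.

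The other U2 and 3′ splice site proteins moved by small steps. In the SF3a complex Sf3a2 was lower (-0.32, adjusted p = 0.016), while Sf3a1 (0.07) and Sf3a3 (-0.17, adjusted p = 0.12) were not called. U2af2, the large subunit of the U2 auxiliary factor that binds the polypyrimidine tract, read 1262, 1538 and 1409.5 in Wt and 1732, 1827 and 1721 in Fn (0.33, adjusted p = 0.017), apart on the deposited scale but not called with either centring. Its small partner U2af1 did not follow, with 3257, 3971 and 3047 in Wt and 3330.3, 4463 and 2917 in Fn (0.05, adjusted p = 0.81), nor did the related U2af1l4 (0.02, adjusted p = 0.88). Of the U2 proteins that bind the snRNA itself, Snrpb2 was called at the edge of the threshold with overlapping groups (0.30, adjusted p = 0.0496), and Snrpa1 was not called (-0.06). Taking the whole role, 4 of 15 were higher and 4 lower on the deposited scale, and 2 higher and 6 lower with either centring.

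Sf1, the branch point binding protein, was not called by its brightest probe set, which read 12526, 11579 and 11241 in Wt and 13184, 12995 and 11985 in Fn with overlap (0.11, adjusted p = 0.17). The 4 other probe sets of the gene lay below 0, at -0.13, -0.64, -0.07 and -0.54, and the second of these was called lower (adjusted p = 0.010). The mean over the probe sets was -0.26 (adjusted p = 0.096). The study tested mouse Sf1 because its human counterpart is a reported DAZAP1 splicing target. It found no exon-level difference on its exon arrays. By RT-PCR of part of the transcript, splicing looked similar in P21 Wt and adult Fn testes. It also looked similar in cultured embryonic fibroblasts of Dazap1 Wt and null mice.

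The tri-snRNP and the proteins of activation and catalysis had 3 of 13 members called on the deposited scale, all higher, with changes spanning 0.60 on the log2 scale. The 4 U5 proteins were all uncalled: Prpf8, the scaffold of the active site, read 5874, 5994 and 6322 in Wt and 5328, 5312 and 6536.5 in Fn (-0.09, adjusted p = 0.42), Snrnp200, the helicase that unwinds U4 from U6, gave -0.15 (adjusted p = 0.11), Prpf6 gave -0.01 (adjusted p = 0.96) and Snrnp40 gave 0.31 (adjusted p = 0.13). Their 95% intervals ran from -0.30 to 0.12 for Prpf8, from -0.32 to 0.02 for Snrnp200, from -0.23 to 0.21 for Prpf6 and from -0.07 to 0.69 for Snrnp40. Snrnp200 was called lower with either centring, at -0.31 and -0.28, and Snrnp40 was called higher with replicate number as a block (adjusted p = 0.025). Prpf19, the ubiquitin ligase at the centre of the PRP19 complex, was the firmest rise, with 6157, 5974 and 5119.8 in Wt and 8378, 8089 and 7114 in Fn. Its groups did not overlap (0.45, adjusted p = 0.0022). Of its 3 other probe sets 2 gave 0.47 and 0.51, and the dimmest was not called (0.05, adjusted p = 0.78). Prpf4b, a kinase of tri-snRNP proteins, was higher on the deposited scale by 0.32 (adjusted p = 0.025), the same as the median of all genes, and was not called with either centring. Of its 6 tested probe sets only 2 were called, both higher, and the changes ran from -0.15 to 0.73. The third call was Prpf4, described below. The rest of the role, among them the U4/U6 proteins Prpf3 (-0.03) and Prpf31 (0.03), were not called.

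Prpf4, a U4/U6 protein, was the 1 member whose probe sets were called in opposite directions. Its brighter probe set read 496.8, 503.7 and 488.6 in Wt and 670.4, 705.4 and 604.5 in Fn (0.41, adjusted p = 0.012), and its dimmer one, with means of 181.6 and 107.5, gave -0.77 (adjusted p = 0.0082). The gene therefore has no settled direction here. Of the members with more than 1 probe set tested this was 1 of 33 (3.03%), beside 261 of 6159 genes (4.24%). Another 7 members were uncalled at their brightest probe set with a dimmer one called: Sf1, Sf3b5 and Lsm11, given above, and Lsm6, Prpf38b, Sf3a1 and Snrnp40. Lsm6 was uncalled at its brightest probe set while 2 others gave 0.33 and 0.36, both called, and Prpf38b read -0.01 at its brightest and 0.56 at the next (adjusted p = 0.0013). Sf3a1 was called lower at a dimmer probe set (-0.29, adjusted p = 0.048) and Snrnp40 higher (0.28, adjusted p = 0.040). The place of each probe set along the transcript was not analysed here, so a change of a transcript's form and a change of its amount were not separated.

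**Figure D5:**
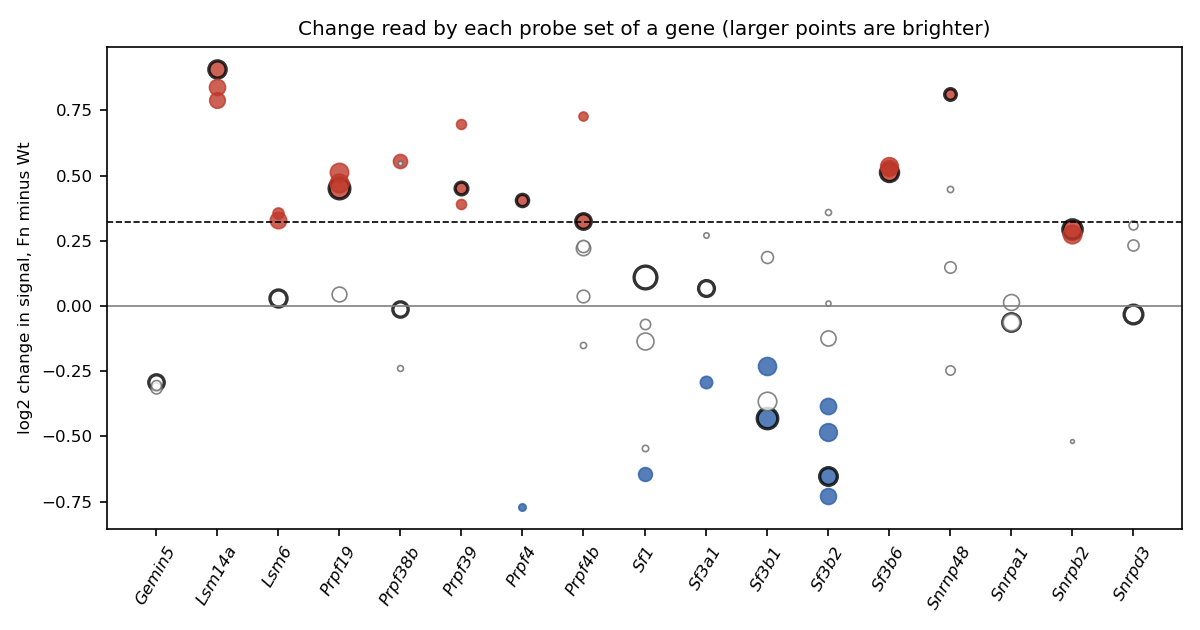
Log2 change in signal, Fn minus Wt (vertical axis), read by each tested probe set of the 17 members plotted; point size grows with brightness, a black ring marks the brightest, red was called higher, blue lower and open neither, with a dashed line at 0.32, where all genes had their median. Plotted are the members with at least 3 tested probe sets, and Prpf4 was added to them, with 2 called in opposite directions. The probe sets of Lsm14a, Sf3b6 and Gemin5 lie close together, whereas those of Prpf4 lie at 0.41 and -0.77 and those of Snrnp48 run from -0.25 to 0.82.

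Leaving out 1 array at a time, 18 of the 29 called members kept their call each time and 11 lost it at least once. The 11 were Lsm8, Smn1, Snrpb2, Prpf4b, Prpf39, Sf3a2, Sf3b4, U2af2, Lsm3, Lsm10 and Snrnp48. Lsm8 lost it without any array other than Wt replicate 2 (adjusted p up to 0.14), and Smn1 (without Wt replicate 2 or 3 or Fn replicate 1 or 3, adjusted p up to 0.14), Snrpb2 (without Wt replicate 1 or 3 or Fn replicate 1 or 2, up to 0.20) and Prpf4b (without Wt replicate 2 or 3 or Fn replicate 1 or 2, up to 0.091) each lost it for 4 arrays. Prpf39 (up to 0.082), Sf3a2 (up to 0.063) and Sf3b4 (up to 0.096) lost it without Wt replicate 3 or Fn replicate 1, U2af2 without Wt replicate 1 or Fn replicate 2 (up to 0.068), and Lsm3 (0.064) and Lsm10 (0.055) without Fn replicate 1. Of the uncalled members 3 gained a call, Gemin5 (without Wt replicate 1, -0.42, or Fn replicate 3, -0.39), Lsm4 (without Fn replicate 2, -0.22) and Sf3b5 (without Wt replicate 3, -0.39). The calls named for Snrnp35, Snrnp25, Ddx20, Lsm2, Lsm14a, Snrpc, Prpf40b, Prpf19, Sf3b2, Sf3b3, Sf3b6, Snrpf and Snrpg held in all 17 alternatives.

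The splicing proteins that the symbol rule leaves out, 82 tested genes in 6 lists, had 29 genes higher (35.4%), 18 lower (22.0%) and a median change of 0.05, beside 44.9% and 24.7% of all genes. With median centring these counts were 16 (19.5%) and 25 (30.5%), beside 33.1% and 27.4% of all genes. The PRP19 complex and related proteins had 7 higher and 4 lower of 21, the spliceosomal helicases 2 and 4 of 12, other snRNP partners 9 and 4 of 21, minor spliceosome partners 2 and 0 of 6, and the exon junction complex 2 and 0 of 6. Factors of snRNP assembly and import had 7 higher and 6 lower of 16, and both of the largest falls lay there. Coil, the coilin protein that organises Cajal bodies, where snRNPs mature, read 5365, 5229 and 6611 in Wt and 1125, 1291 and 1087 in Fn. It was 4.90-fold lower with the groups far apart (-2.29, adjusted p = 3.8e-07), well beyond any member. Ncbp1, the large subunit of the nuclear cap-binding complex, went from a mean of 6262.5 to 1967 (-1.67, adjusted p = 2.3e-06). The largest rises were Dnajc17 (1.05, adjusted p = 0.0091) and Htatsf1, a protein that binds the U2 snRNP (0.97, adjusted p = 7.1e-05). The lists of partners and markers were drawn up with results of these data known, so their counts describe these arrays only.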

How the data were processed

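RNA of whole P21 testes from 3 Wt and 3 Fn samples was measured on 6 Affymetrix mouse arrays. For each of 45037 probe sets the authors deposited 1 linear intensity per array, the MAS5 signal (MAS5 version not given in the sources used here), and the trimmed means of the arrays (497.7 to 498.0) show scaling to one level. The number of arrays limits the precision. Probe sets were named through the platform annotation (34945 with 1 gene, 932 with several, 9160 with none).

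Log2 intensities were tested with limma 3.58.1 in R 4.3.3 (lmFit, eBayes with an intensity trend), over the 27022 probe sets at or above the 40th percentile of mean log2 signal. The 1 value of 0 was set to 0.1. The script was tested on simulated data. Values named in the text follow a rule: in each role the members with the smallest p and groups apart, the one with the largest p, and genes the study names; the rest were chosen after their values were seen. Members and lists were chosen with earlier results of these data known.

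Deviations of same-numbered Wt and Fn samples correlated at 0.13, 0.12 and 0.16 (other pairs -0.15 to 0.04). The replicate numbers come from the labels, which do not say what they stand for. They were used as pairs only in the replicate block alternative, and the main fit held no pairing. Alternatives were other scalings, filters, a pseudocount, eBayes settings, array weights, the mean of a gene's probe sets, the replicate block and leaving out each array. Detection calls were not used here.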

Additional observations from a re-analysis of the deposited data

How the results depend on the processing

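The counts of 18 members higher and 11 lower moved with scaling, threshold and settings of the fit. Median centring gave 7 and 17, centring on the 75th percentile gave 10 higher, an adjusted p under 0.01 gave 10 and 7, and a 2-fold limit gave 0 and 1. Leaving out 1 array gave 12 to 16 higher and 8 to 12 lower. A fit with no intensity trend gave 13 and 9, and array weights gave 20 and 14. With no filter on dim probe sets the counts were 15 and 11, and with the mean of a gene's probe sets 15 and 10. The partners (29 higher, 18 lower) gave 16 higher with median centring and 1 and 5 with the 2-fold limit. The median change of the members minus that of all genes, -0.29 (SD between arrays 0.053), was -0.20 under quantile normalization and -0.31 to -0.21 leaving out 1 array. With replicate number as a block, 19 members were higher and 12 lower, the additions being Snrnp40 and Sf3b5, and no other call of a member changed with this pairing.

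The sign turned only for Prpf4 among the called members, at -0.18 averaged over its probe sets, and for 18 of the 27 uncalled members in at least 1 alternative. Most of these had changes near 0, but Lsm12 (-0.25) read 0.0048 averaged over its probe sets and 0.017 without Fn replicate 2, and Snrnp200 (-0.15) read 0.099 averaged over its probe sets. Snrpd3 read 0.074 under quantile normalization, 0.050 with array weights, 0.17 averaged over its probe sets, and -0.12 to 0.11 leaving out 1 array. U2af1l4 read -0.064 under quantile normalization, -0.14 and -0.11 with median and 75th percentile centring, -0.038 with array weights, and -0.035 to 0.068 leaving out 1 array. Sf1 read -0.048 and -0.019 with the centrings and -0.26 averaged over its probe sets, and Snrnp70 read -0.020 with median centring. Leaving out 1 array, Prpf6 read -0.067 to 0.041 and Lsm7 -0.052 to 0.026. The cause was not tested for any of these.

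Signals well above the filter at 48.0 set no limit for the members except Snrpn. With 3 arrays a group, the uncalled members were bounded only to within their intervals. Survivors of a largely lethal genotype, whole tissue, possible stage differences and unknown probe positions limit what each change can be laid to.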
